A study of Mus musculus with 208 samples.

Results

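Histone acetylation writers, erasers and readers were followed here as 34 genes out of the 46403 listed in each count table of the series. The members were chosen by symbol from a list: 9 acetyltransferases (writers), 18 deacetylases (erasers, made up of histone deacetylases and sirtuins), 6 bromodomain proteins (readers) and the corepressor scaffold Ncor1. The rule itself uses symbols and no measured value, but the list was drawn up with earlier results of these data known. All 34 passed the filter on low counts (a total above 10) in all 4 regions.

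Acetyltransferases place acetyl groups on lysines of histone tails, which loosens the contact of histones with DNA and marks active promoters and enhancers. Deacetylases remove the groups. The zinc-dependent histone deacetylases fall into class I (mostly nuclear), class IIa (which shuttle between nucleus and cytoplasm with neuronal activity), class IIb and class IV, whereas the sirtuins consume NAD and are spread over nucleus, cytoplasm and mitochondria. Bromodomain proteins bind acetylated lysines and bring remodelling or transcription complexes to them. In neurons, histone acetylation has long been studied in memory and in responses to drugs of abuse.

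The samples were RNA-seq libraries of nuclear RNA from sorted NeuN+ nuclei (NeuN is a neuronal nuclear antigen) of adult C57BL/6NTac mice of both sexes, 107 of them from females. Mothers received saline or morphine at 10 mg/kg per day by minipump, their pups received saline or morphine at 10 mg/kg by injection, and the adult offspring received saline or LPS (bacterial lipopolysaccharide, an inflammatory stimulus) at 2 mg/kg 2 h before collection. Conditions are named exposure first and challenge second, so that SAL-SAL had neither agent and MOR-LPS had both. The hypothalamus had 11 libraries of SAL-SAL mice, 14 of MOR-SAL mice, 12 of SAL-LPS mice and 14 of MOR-LPS mice. In that order the hippocampus had 13, 12, 14 and 16, the prefrontal cortex (PFC) 10, 12, 10 and 16, and the striatum 13, 8, 15 and 18. Replicates carry numbers such as 12-0. The part before the hyphen forms 18 number groups, each within one exposure, and the labels do not say what they stand for. They are not taken as litters, whose number in the study's methods differs. The 71 full numbers, each with a single condition and sex, recur across regions and were read as animals, which the labels do not state.

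Total counts per library spanned 7673 to 35077048 for the hypothalamus and 227025 to 24071488 for the hippocampus. For the PFC they spanned 3056648 to 21988203, and for the striatum 5954700 to 92945090. Of the libraries, 3 hypothalamic, 2 hippocampal, 3 PFC and 0 striatal ones were under 0.5 of their region's median total. In 3 hypothalamic, 4 hippocampal and 2 PFC libraries the Y-linked genes went against the labelled sex. Every member averaged at least 81.2 counts per library in every region, the lowest being Sirt1 in the hypothalamus. Summed neuronal markers had a median of 2442 normalized CPM in the hypothalamus and 4608 to 5697 in the other regions (CPM are counts scaled to a common library total, with TMM factors). Summed oligodendrocyte markers had medians between 346.5 and 403.2, but reached 6921 in single hypothalamic libraries. Summed thalamic markers had a median of 4168 in the striatum, with single libraries up to 8513, against 1908 in the PFC, 1334 in the hippocampus and 486.5 in the hypothalamus. The markers Gfap, Tubb3, Nefl, P2ry12 and Kcnj13 were listed at 0 in every hippocampal, PFC and striatal library and were counted in the hypothalamus. Differences between the hypothalamus and the other regions therefore cannot be told apart from a difference in how the tables were counted.

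Most members start at CpG-rich promoters. In the RefSeq promoter table (mm10), 29 of the 34 members had an entry, with 43 promoters among them, and the 250 bases before each start were searched on both strands. The median promoter of the members held 17 CpG dinucleotides, against 6 over all 32851 promoters. The GC box GGGCGG was found in 60.5% of the members' promoters and in 32.7% of all. The TATA box letters TATAAA were found in 2 of the 43, one of Hdac8 and one of Hdac9 (4.65%, against 12.4% of all), and the cAMP response element TGACGTCA in 0 (1.55% of all). A match of letters is a description and not a bound site. The promoters of Hdac9 and Brd9 are printed because the levels of both genes differed between conditions below. Hdac9 holds the promoter with the fewest CpG among the members, and Brd9 had more CpG than the median. Each line gives the 200 bases before a start, read along the gene's own strand, with the TATA box or the GC box (here as CCGCCC, its reverse complement) in capitals. A pair of overlapping GC boxes in Brd9 runs together as 1 stretch of capitals.

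Hdac9, internal start, chr12:34528890-34529089, minus strand, 2 CpG: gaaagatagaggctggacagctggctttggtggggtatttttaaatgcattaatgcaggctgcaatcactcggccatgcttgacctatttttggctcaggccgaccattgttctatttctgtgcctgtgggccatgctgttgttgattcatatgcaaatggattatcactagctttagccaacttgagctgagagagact
Hdac9, outermost start, chr12:34917096-34917295, minus strand, 0 CpG: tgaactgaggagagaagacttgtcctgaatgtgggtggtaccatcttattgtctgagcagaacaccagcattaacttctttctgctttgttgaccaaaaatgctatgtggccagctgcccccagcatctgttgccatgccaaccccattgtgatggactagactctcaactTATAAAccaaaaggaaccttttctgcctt
Brd9, chr13:73937611-73937810, plus strand, 25 CpG: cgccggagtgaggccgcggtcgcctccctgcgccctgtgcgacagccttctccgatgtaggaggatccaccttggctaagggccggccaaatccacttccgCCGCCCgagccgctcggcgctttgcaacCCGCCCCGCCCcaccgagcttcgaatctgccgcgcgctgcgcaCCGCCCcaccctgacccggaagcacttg

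Levels were compared between genes per kb of exon, as the median normalized CPM over the libraries of a region divided by the exon length. That length merges the exons of all annotated transcripts of a gene, so ranks per kb depend on it. Among the writers, Crebbp, the partner of Ep300 in the pair of acetyltransferases that acetylate enhancers, had the highest level of all members in the striatum (25.2 CPM per kb) and in the hippocampus (21.4). It was second in the PFC at 18.7 and lower in the hypothalamus at 14.1. Kat6b, a MYST-family acetyltransferase, stood at 19.3 in the striatum, 16.6 in the hippocampus and 14.3 in the PFC, and at 7.37 in the hypothalamus. Ep300 itself lay between 7.84 (PFC) and 13.0 (hypothalamus). Kat5, the catalytic subunit of a large acetyltransferase complex that also acts in DNA repair, lay between 4.37 (PFC) and 8.70 (hypothalamus), and Kat8, which acetylates histone H4, between 5.25 and 6.30 in all 4 regions. Up to 12.1% of the exon bases of Kat5 overlap a gene on the opposite strand (Rnaseh2c), and how counting used strand is not given in the sources used here.

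Among the erasers, Hdac11, the single class IV enzyme, led in the PFC (24.2 CPM per kb) and Hdac3, the class I enzyme that works with Ncor1, led in the hypothalamus (25.6). Hdac8, an X-linked class I enzyme, reached 24.4 in the striatum, 16.4 in the hippocampus and 12.0 in the PFC, against 5.77 in the hypothalamus. Hdac1 and Hdac2, the class I pair of the large nuclear corepressor complexes, lay between 5.03 and 8.94. Hdac4, a class IIa enzyme, lay at 17.2 in the PFC and 4.99 in the hypothalamus, and its relative Hdac9 was the lowest of all 34 members per kb in the hypothalamus at 1.49. Hdac9 has 14.7 kb of exon. Its hypothalamic median before division by length, 21.83 CPM, was above those of Sirt1 (10.77) and Kat8 (17.05), among others. For Hdac4 and Hdac11, 22.4% and 17.9% of exon bases overlap opposite-strand genes, and without strand the reads of such partners cannot be told apart. Among the sirtuins, Sirt7, a nucleolar enzyme, had the highest level in all 4 regions (10.4 to 17.8). Sirt1, a mainly nuclear enzyme, stayed between 2.02 and 3.21, and Sirt5, a mitochondrial enzyme that removes succinyl groups, between 1.77 and 3.19.

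The readers were more even. Their medians per region ran from 7.03 to 8.74 CPM per kb, and single readers from 5.195 (Brd2, hippocampus) to 13.7 (Brd9, hippocampus). Of the exon bases of Brd2, 9.78% overlap opposite-strand genes, H2-DMa among them. Without strand the reads of such partners cannot be told apart, here and in the values of Brd2 below. Ncor1 was second in the hypothalamus (19.9) and in the hippocampus (17.0), and lay at 18.3 in the striatum and 12.5 in the PFC.

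**Figure D1:**
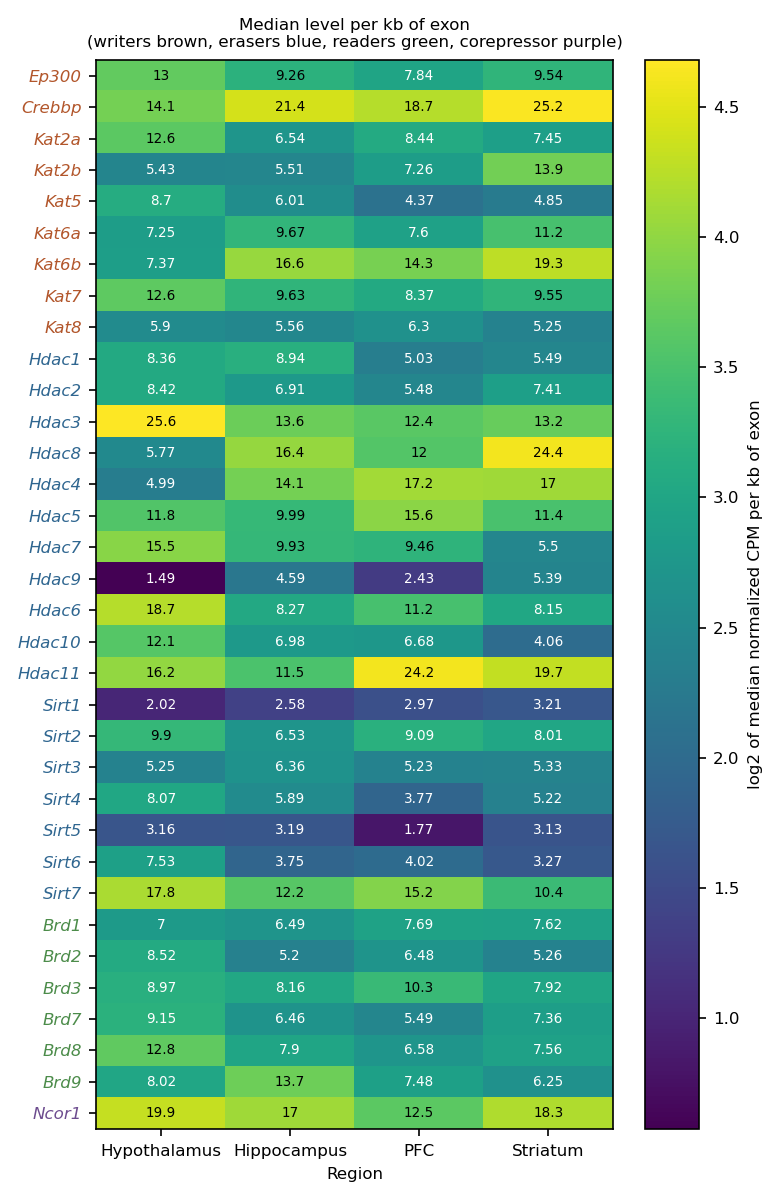
Median normalized CPM per kb of exon for each member (rows, coloured by role) in each region (columns), over all libraries of the region. The colour is on a log2 scale and the printed values are linear. Crebbp, Hdac3, Hdac8 and Hdac11 hold the highest levels, and Hdac9, Sirt1 and Sirt5 the lowest.

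The regions were then compared in one edgeR fit of all libraries, over the 19478 genes counted in all 4 tables, each region averaged over its 4 conditions. In the hippocampus against the PFC, 16 of 34 members were higher and 9 lower (quasi-likelihood test, Benjamini-Hochberg adjusted p under 0.05), where 25.8% of all genes tested were higher and 20.5% lower. Hdac9 was higher in the hippocampus by 0.92 on the log2 scale (SE 0.17), Hdac1 by 0.84 and Sirt5 by 0.80, and the reader Brd9, a subunit of a BAF-type chromatin remodelling complex, by 0.84. Hdac11 was lower there by a log2 fold change of -1.12 (SE 0.10), Hdac5 (class IIa) by -0.73, and the related acetyltransferases Kat2a and Kat2b by -0.59 and -0.57. A change of 2-fold or more was reached by 1 member (Hdac11), against 17.4% of all genes. In the fit with a correlation within animals it was reached by 4, with Sirt5 at 1.44, and the share of all genes in that fit is not given.

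In the striatum against the PFC, 13 members were higher and 11 lower, against 36.2% and 16.6% of all genes. Hdac9 differed most, with a log2 fold change of 1.45 (SE 0.17), followed by Hdac8 (0.90), Sirt5 (0.68) and Kat2b (0.68). Hdac7 (class IIa, -0.75), Hdac10 (class IIb, -0.66), Sirt7 (-0.61) and Hdac5 (-0.57) were lower in the striatum. At 2-fold or more stood 1 member, against 19.4% of all genes. With a correlation within animals there were 2, with Sirt5 at 1.31, again without a share of all genes.

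In the striatum against the hippocampus, 8 members were higher and 7 lower, against 30.2% and 15.2% of all genes. Kat2b was higher in the striatum by 1.25 on the log2 scale (SE 0.12), Hdac11 by 0.76, Hdac8 by 0.56 and Hdac9 by 0.53. With a correlation within animals Hdac9 was at 0.30 and no longer passed (adjusted p 0.0914). Brd9 was lower by a log2 fold change of -1.08 (SE 0.09), Hdac10 by -0.76, Hdac1 by -0.73 and Hdac7 by -0.71. At 2-fold or more stood 2 members, Kat2b and Brd9, against 18.8% of all genes. In the edgeR fit the members' share past that fold was below the share of all genes in each of these 3 comparisons. All 8 thalamic markers were higher in the striatum than in the PFC and than in the hippocampus, with median log2 fold changes of 3.61 and 1.87, and 5 of 8 were higher and 2 lower in the hippocampus than in the PFC. Their part in the differences of the members was not tested.

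In the hypothalamus against the mean of the other regions, 19 members were higher and 8 lower, against 37.5% and 32.2% of all genes. Hdac10 (log2 fold change 1.12), Hdac6 (1.08), a cytoplasmic class IIb enzyme that deacetylates tubulin, Hdac3 (1.02) and Sirt6 (1.00) were highest above the other regions. Hdac4 (-1.62), Hdac9 (-1.58), Hdac8 (-1.49) and Kat6b (-1.08) were lowest below them. At 2-fold or more stood 7 members, against 37.2% of all genes. These differences carry the limit on counting given above, and with the SAL-SAL libraries alone 20 members were called, against 44.7% of all genes.

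**Figure D2:**
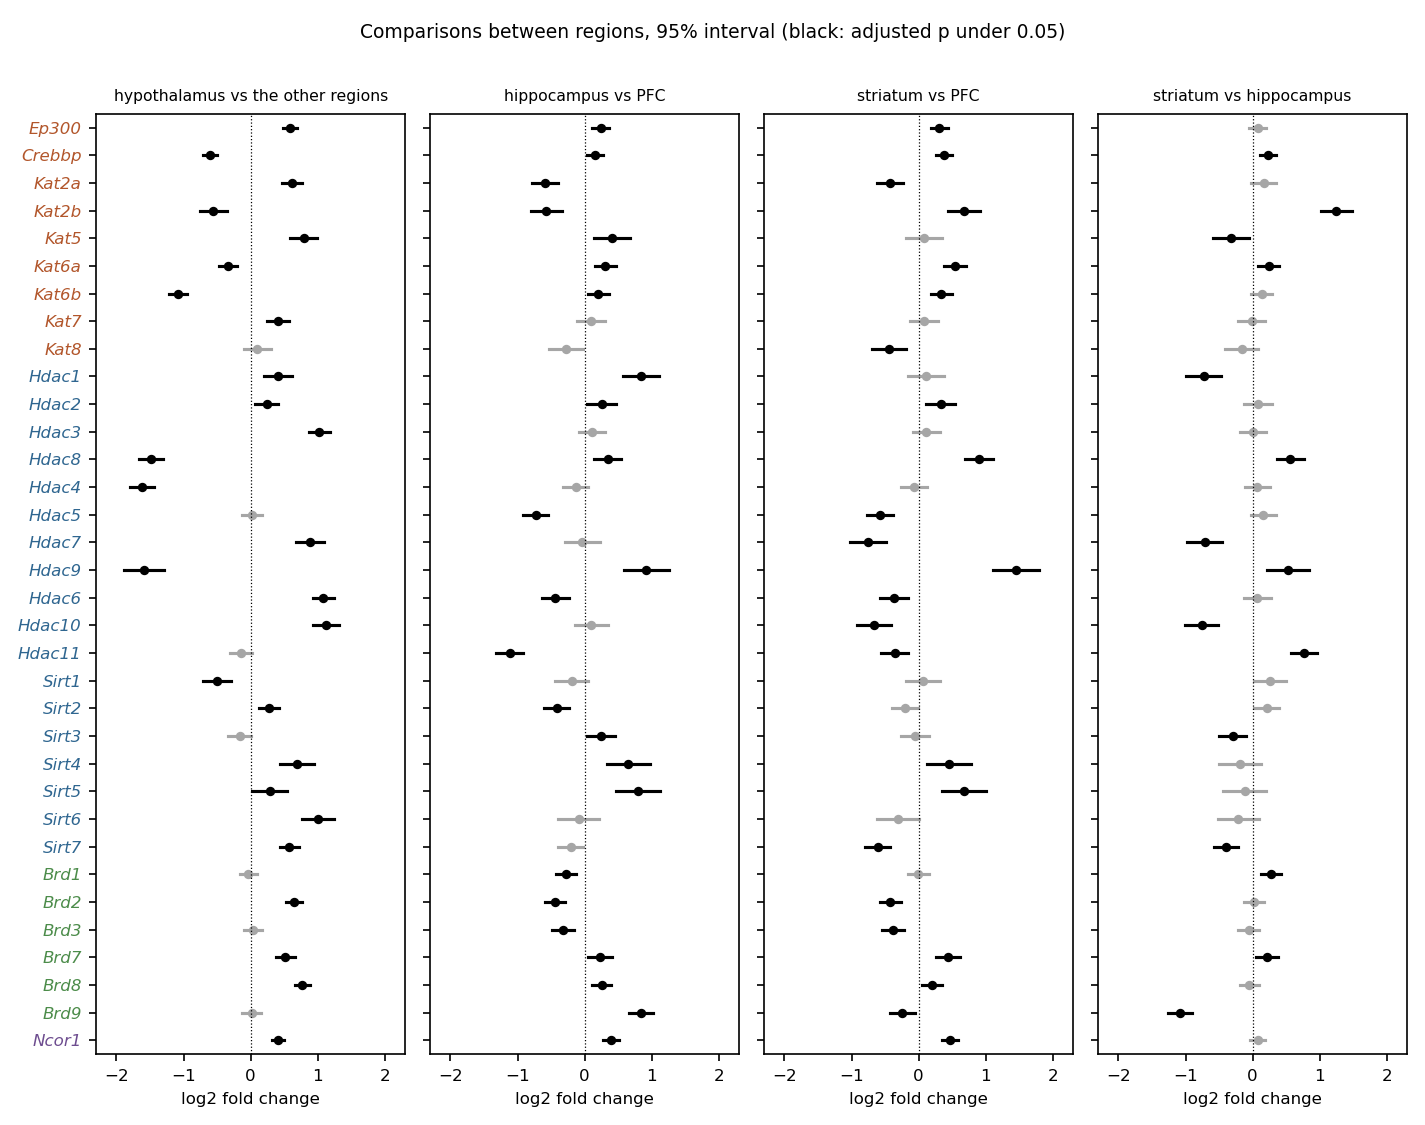
log2 fold change of each member with its 95% interval in the 4 comparisons between regions, from the fit of all libraries. Black marks an adjusted p under 0.05, and Hdac9 lies furthest to the right in the striatum against the PFC, at 1.45.

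Perinatal morphine alone was asked about by comparing MOR-SAL with SAL-SAL. By edgeR's test 0 of 34 members passed in any region. In the hypothalamus 1.44% of all genes did, and in the hippocampus, PFC and striatum 0%. Of the hypothalamic genes called, 45% had a mean of at most 5 counts. At an unadjusted p under 0.05 stood 3 hypothalamic, 1 hippocampal, 0 PFC and 0 striatal values of members, beside 17.3%, 10.3%, 10.1% and 11.5% of all genes, and DESeq2 called 0 members in each region. The median log2 fold change of the members was -0.05 in the hypothalamus, where that of all genes was 0.07. The smallest p among the members were those of the BET reader Brd2 (log2 fold change -0.39, SE 0.16, adjusted p 0.153) and of Kat6b (-0.36, SE 0.15, adjusted p 0.175), both in the hypothalamus. Ncor1, which the study picked on these same samples, had a log2 fold change of -0.23 there (SE 0.14, adjusted p 0.427). Without number group 10 that value was 0.000388 and no longer negative, and the value of Kat6b was -0.16 (adjusted p 0.723). In the same contrast 5 of 8 thalamic markers were lower (median log2 fold change -2.13 over the list), as were 1 of 8 oligodendrocyte markers (median -1.64, all 8 negative with an unadjusted p under 0.05), 1 of 8 astrocyte markers (median -1.14) and 2 of 6 choroid plexus markers (median -0.90). Their part in the values of Brd2, Kat6b and Ncor1 was not tested.

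After LPS, MOR-LPS was compared with SAL-LPS, and again 0 of 34 members passed in any region, against 1.03% of all hypothalamic genes, 2.73% of hippocampal, 0.0046% of PFC and 0% of striatal genes. At an unadjusted p under 0.05 stood 2, 3, 2 and 0 members in that order, beside 13.9%, 17%, 13% and 11.2% of all genes, and DESeq2 called 0 members. Genes with a mean of at most 5 counts made up 80.2% of the hypothalamic and 80.1% of the hippocampal calls. With edgeR's stricter filterByExpr filter, 0.00659% of the hippocampal genes tested passed. Sirt7 in the PFC (log2 fold change -0.57, SE 0.21, adjusted p 0.175) and Brd9 in the hypothalamus (0.51, SE 0.18, adjusted p 0.143) had the smallest p. In the hypothalamic contrast 1 of 8 astrocyte markers was higher (median log2 fold change 1.31, 7 with an unadjusted p under 0.05) and 0 of 8 oligodendrocyte markers passed (median 0.96, all 8 positive). In the PFC contrast 0 oligodendrocyte or astrocyte markers passed (medians 0.81 and 0.96). Their part in the values of Brd9 and Sirt7 was not tested.

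The LPS challenge was asked about within each exposure. In saline-exposed offspring (SAL-LPS against SAL-SAL), 2 of 34 members passed in the hippocampus, where 2.55% of all genes did, and 0 in the hypothalamus (0.246%), PFC (0%) and striatum (0.0128%). In these 3 regions 3, 3 and 1 members had an unadjusted p under 0.05, beside 14%, 12.7% and 11.7% of all genes, and DESeq2 called 0 members.

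One of the 2 was Brd8, a bromodomain subunit of the Kat5 acetyltransferase complex. In hippocampal SAL-SAL libraries it had a lowest, median and highest level of 30.9, 66.6 and 102.7 normalized CPM. Libraries of MOR-SAL mice had 61.0, 79.4 and 116.4, those of SAL-LPS mice 74.7, 97.3 and 164.7, and those of MOR-LPS mice 64.0, 82.1 and 126.6. The SAL-LPS libraries had the highest median, and their range overlapped that of SAL-SAL. The log2 fold change after LPS was 0.61 (SE 0.13, adjusted p 0.0268). In morphine-exposed offspring the same challenge gave 0.05 (SE 0.13) in the hippocampus, and the difference between these responses was -0.56 (SE 0.19, unadjusted p 0.00414, adjusted p 0.0981), which did not pass. Outside the hippocampus, Brd8 after LPS had log2 fold changes of 0.28 in the hypothalamus, 0.09 in the PFC and 0.08 in the striatum in saline-exposed offspring, and of 0.15, 0.57 and 0.33 in morphine-exposed ones. None of these passed.

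The other was Hdac9, a class IIa deacetylase that binds Mef2 transcription factors. It fell. Hippocampal SAL-SAL libraries had 42.6, 93.7 and 131.1 normalized CPM as lowest, median and highest. Those of MOR-SAL mice had 39.5, 59.0 and 142.4, those of SAL-LPS mice 22.0, 60.7 and 92.2, and those of MOR-LPS mice 41.9, 69.5 and 133.2. SAL-SAL had the highest median of the 4 groups and overlapped each of the others, and the highest single libraries were in MOR-SAL and MOR-LPS. The log2 fold change of SAL-LPS against SAL-SAL was -0.66 (SE 0.19, adjusted p 0.0455), and in morphine-exposed offspring it was 0.04 (SE 0.19). The difference between them, 0.70 (SE 0.27), had an adjusted p of 0.187. In the hypothalamus Hdac9 after LPS had a log2 fold change of -0.76 (SE 0.27, adjusted p 0.141) in saline-exposed offspring.

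Both hippocampal calls depended on the fit. DESeq2 called both (adjusted p 0.00998 for Brd8 and 0.0491 for Hdac9) and 0.811% of all genes, and both also passed in edgeR with DESeq2's size factors, with no count filter, with no sex term, without low-depth libraries and without libraries against their labelled sex. Genes with a mean of at most 5 counts per library made up 75.7% of the 563 genes called in that contrast, and with edgeR's stricter filterByExpr filter Brd8 had an adjusted p of 0.0729 and Hdac9 of 0.144. When each of the 18 number groups was left out in turn, the call of Hdac9 was lost in 13 of 18 fits and that of Brd8 in 1, without number group 3 (adjusted p 0.0693). Without that group Hdac9 had an adjusted p of 0.134, the highest of its 18 fits. Brd8 had a log2 fold change of 0.31 in females alone and 0.90 in males alone (adjusted p 0.544 and 0.0530), a difference that was not tested. Hdac9 did not pass in females alone or males alone either (adjusted p 0.407 and 0.181), and with only the groups compared neither passed (adjusted p 0.0906 for Brd8 and 0.123 for Hdac9). With number group as a block neither Brd8 nor Hdac9 passed. Of the marker lists, 0 of 8 thalamic (median log2 fold change -1.17, 1 positive), 0 of 8 oligodendrocyte (-0.36, 1 positive) and 0 of 5 neuronal markers (0.09) passed in this contrast. Their part in the values of Brd8 and Hdac9 was not tested.

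In morphine-exposed offspring (MOR-LPS against MOR-SAL), 1 of 34 members passed in the hypothalamus, where 6.27% of all genes did, and 0 in the hippocampus (0.467%), PFC (0.0184%) and striatum (1.39%). In these 3 regions 3, 1 and 4 members had an unadjusted p under 0.05, beside 14.3%, 13.2% and 17.8% of all genes, and DESeq2 called 0 members in each. Of the hypothalamic genes called, 52.1% had a mean of at most 5 counts. The member that rose was Brd9. Its hypothalamic SAL-SAL libraries had 43.4, 67.0 and 112.7 normalized CPM as lowest, median and highest. Those of MOR-SAL mice had 46.0, 60.5 and 79.8, those of SAL-LPS mice 52.6, 64.2 and 107.9, and those of MOR-LPS mice 38.4, 82.8 and 185.8. The 4 highest libraries were in MOR-LPS, which was also the widest group and held the lowest library. The highest SAL-LPS value came from the library of 7673 counts and rests on 2 counts. The log2 fold change was 0.63 (SE 0.17, adjusted p 0.0191). In saline-exposed offspring it was -0.10 (SE 0.19), and the difference between the responses, 0.73 (SE 0.26), had an adjusted p of 0.101. In the hippocampus Brd9 had a log2 fold change of -0.43 (SE 0.17, adjusted p 0.191) in morphine-exposed offspring.

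DESeq2 called 6 members in this hypothalamic contrast, and 4.4% of all genes. They were Brd9 (0.71), Sirt2 (0.54), Kat6a (0.46), Crebbp (0.37), Ncor1 (0.34) and Ep300 (-0.28), of which edgeR called Brd9 alone. Brd9 did not pass in females alone (0.51, adjusted p 0.221) or in males alone (0.77, adjusted p 0.0999). Without number group 6, 14 or 16 the edgeR adjusted p of Brd9 was 0.0625, 0.0578 or 0.0748. With number group as a block Brd9 did not pass. Glial markers moved in the same contrast. Of 8 astrocyte markers 6 rose, the list having a median log2 fold change of 2.302, and their sum ran from 139.7 to 1848 normalized CPM in MOR-LPS and from 101.2 to 221.8 in MOR-SAL. Of 8 oligodendrocyte markers 5 were higher, with a median of 1.84. Of 8 microglial markers 3 were higher, with a median of 0.86, and of 7 neuronal markers 0. Their part in the value of Brd9 was not tested. In bulk libraries fewer nuclei of a type and less RNA per nucleus cannot be told apart.

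**Figure D3:**
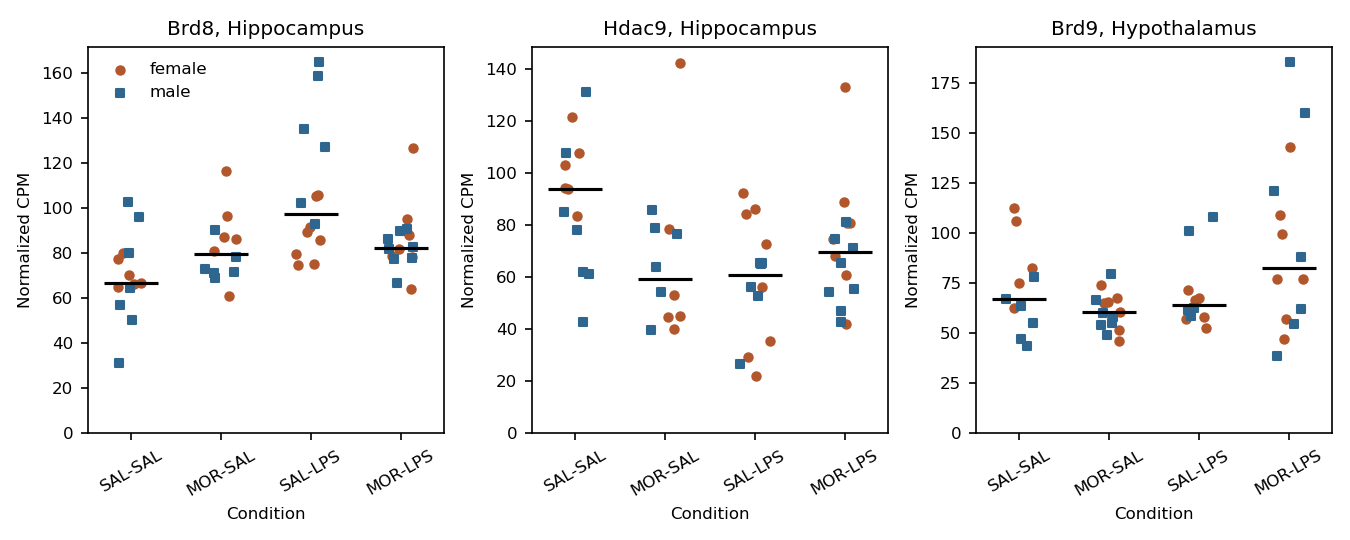
Normalized CPM per library of Brd8 and Hdac9 in the hippocampus and of Brd9 in the hypothalamus, by condition, with females as circles, males as squares and the group median as a line. Brd8 medians run from 66.6 in SAL-SAL to 97.3 in SAL-LPS, Hdac9 medians are highest in SAL-SAL at 93.7, and MOR-LPS holds the highest Brd9 libraries, up to 185.8.

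Whether exposure altered the response to LPS (the interaction term) was tested last, and 0 of 34 members passed in any region. Among all genes the share was 3.8% for the hypothalamus, 2.35% for the hippocampus, 1.78% for the PFC and 0.00854% for the striatum. At an unadjusted p under 0.05 stood 4, 4, 1 and 0 members in that order, beside 15.6%, 12.8%, 11.5% and 14.8% of all genes. DESeq2 called 1, Brd2 in the hypothalamus, where it called 1.21% of all genes and edgeR gave a log2 difference of 0.57 (SE 0.22, adjusted p 0.134). The smallest p were those of Brd8 in the hippocampus, given above, and of Sirt7 in the PFC (-0.87, SE 0.30, adjusted p 0.134). The share of called genes with a mean of at most 5 counts was 67% in the hypothalamus, 91.5% in the hippocampus and 87.3% in the PFC. In the hypothalamic interaction 5 of 8 oligodendrocyte markers were higher (median log2 difference 2.49), 4 of 8 astrocyte (2.55), 3 of 8 thalamic (1.52), 1 of 8 microglial (0.75), 1 of 6 choroid plexus (1.91) and 0 of 7 neuronal markers. In the PFC interaction 2 of 8 oligodendrocyte markers were higher (median 2.39, 7 with an unadjusted p under 0.05) and 0 of 7 astrocyte markers (1.81). Their part in the values of Brd2, Brd9 and Sirt7 was not tested.

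Sex passed for 0 members in every region, against 3.45% of all hypothalamic genes, 2.51% of hippocampal, 0.709% of PFC and 0.841% of striatal genes. At an unadjusted p under 0.05 stood 3, 7, 1 and 6 members, beside 15.6%, 15.6%, 12.7% and 13% of all genes. In that order, genes with a mean of at most 5 counts made up 59.3%, 72.9%, 80.5% and 53.8% of those called. Of the 18 number groups 17 hold a single sex, so that sex and number group can hardly be told apart. In the striatum Kat2b had a log2 fold change of 0.39 between females and males (SE 0.11, adjusted p 0.0578) and Kat7, a MYST acetyltransferase of replication origins, of -0.37 (SE 0.10, adjusted p 0.0607). DESeq2 called both and also Sirt2 (0.40, adjusted p 0.0409) in the striatum, and 0.99% of all genes. In the same contrast 0 of 8 oligodendrocyte markers passed, but all 8 had positive values (median log2 fold change 1.07) and 6 an unadjusted p under 0.05. Of 7 microglial markers 1 was higher (median 0.78, all 7 positive), and of 5 neuronal markers 0 passed (median -0.23, 0 positive). Their part in these values was not tested. Without the low-depth libraries Sirt5 (0.47) and Sirt7 (0.43) were called in the hippocampus, with adjusted p of 0.0350 and 0.0339, against 2.46% of all genes. With all hippocampal libraries 1 of 5 neuronal markers was lower in females (median -0.21) and 1 of 5 choroid plexus markers higher (median 1.85), and their part in these values was not tested.

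**Figure D4:**
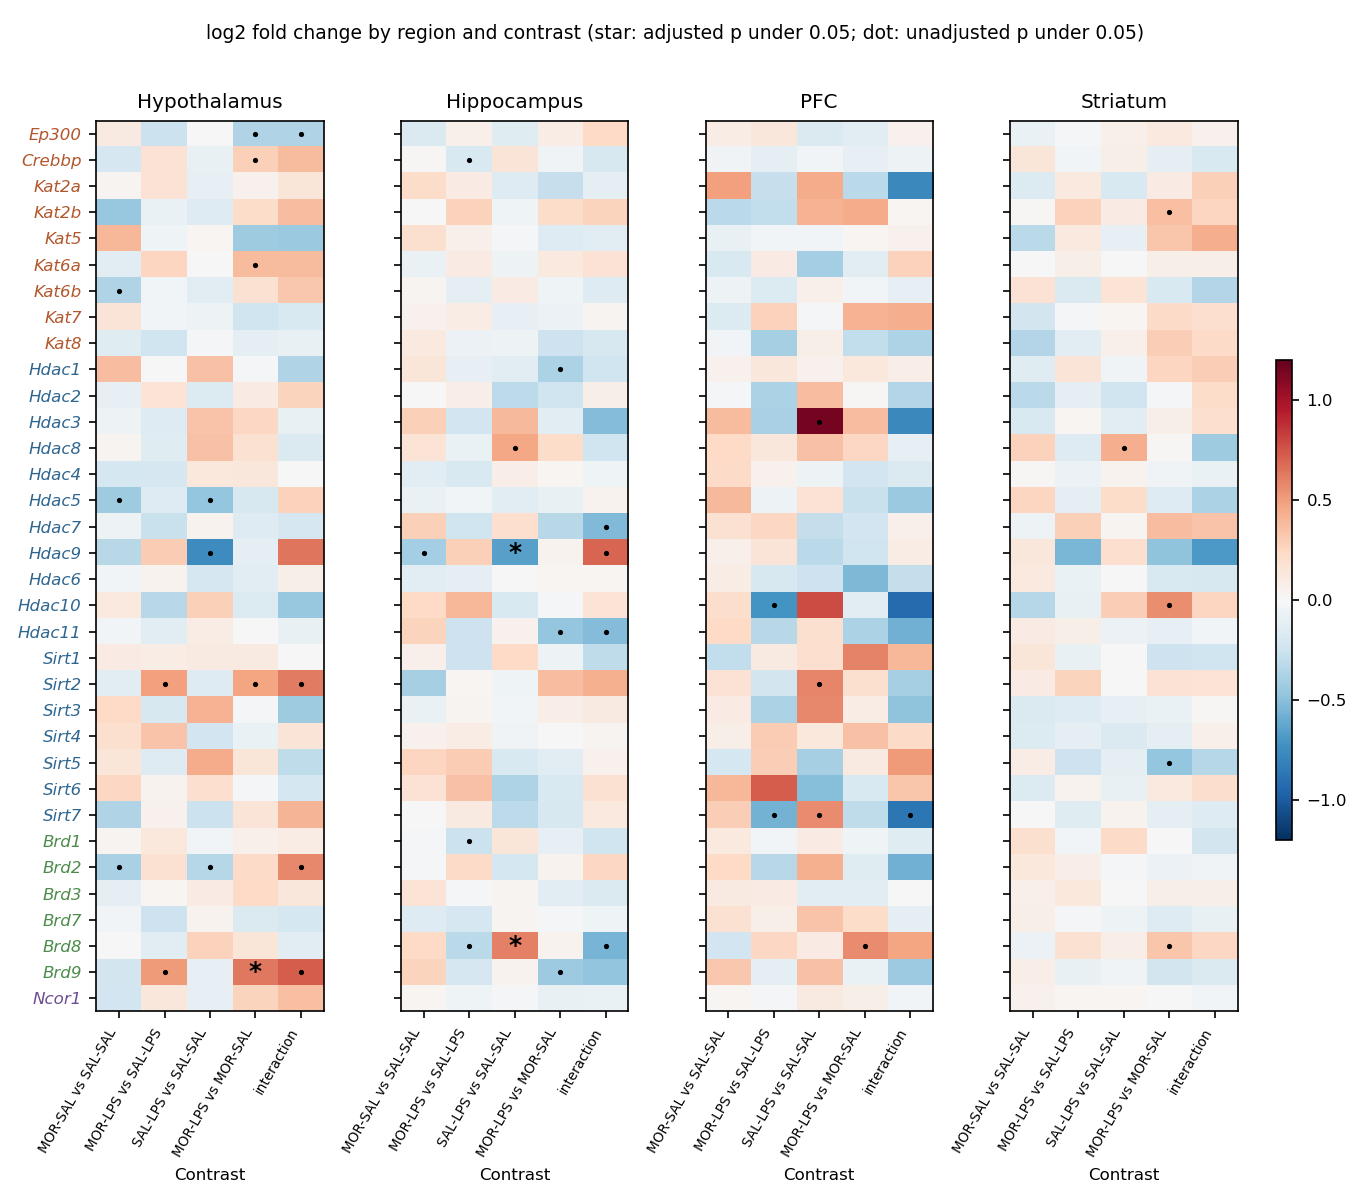
log2 fold change of each member (rows) in the 5 condition contrasts (columns) of each region, with red for higher and blue for lower. Stars mark an adjusted p under 0.05 (Brd8 and Hdac9 in the hippocampus, Brd9 in the hypothalamus) and dots an unadjusted p under 0.05.

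The contrasts were also averaged over the 4 regions in a limma-voom fit of all libraries with a correlation within animals, a comparison added after the region results had been seen. LPS against saline, over regions and exposures, passed for 4 of 34 members, all higher, where 5.5% of all genes passed. Brd8 had a log2 fold change of 0.26 (SE 0.05, adjusted p 0.000107), Hdac3 of 0.28 (SE 0.07, adjusted p 0.00511), Hdac8 of 0.28 (SE 0.08, adjusted p 0.0287) and Sirt2, a cytoplasmic sirtuin known for its high level in oligodendrocytes, of 0.22 (SE 0.07, adjusted p 0.0377). The same count was found without the low-depth libraries and with a correlation within number groups in place of animals. Within saline exposure 2 members passed (Hdac3 at 0.46 and Brd8 at 0.28), against 1.22% of all genes, and within morphine exposure 1 (Brd8 at 0.25), against 4.41%. These averages share their libraries with the region contrasts above and are not separate evidence. Summed astrocyte markers had a higher median in MOR-LPS than in MOR-SAL in all 4 regions, most in the hypothalamus (139.9 to 683.2 normalized CPM). In saline-exposed offspring their median after LPS was higher in the hypothalamus (225.4 to 245.8) and lower in the other regions. Their part in the averages was not tested. Morphine against saline, over regions and challenges, passed for 0 members, against 0.0154% of all genes. At an unadjusted p under 0.05 stood 1 member, beside 6.81% of all genes. It was Sirt6, a nuclear sirtuin of DNA repair and metabolism, at 0.39 (SE 0.13, adjusted p 0.434).

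Hdac3 was spread unevenly over the regions. In the PFC, SAL-SAL libraries had 8.04, 36.5 and 59.6 normalized CPM as lowest, median and highest and SAL-LPS libraries 45.9, 61.8 and 133.8, with a log2 fold change of 1.15 (SE 0.33, adjusted p 0.116). In the hippocampus it was 0.39 (SE 0.20), in the hypothalamus 0.34 (SE 0.17) and in the striatum -0.13 (SE 0.12). Hdac8 had positive values in all 4 regions in saline-exposed offspring, at 0.46 in the hippocampus, 0.44 in the striatum, 0.36 in the hypothalamus and 0.35 in the PFC. None of these values passed in its region, but without the sex term the hippocampal value of Hdac8 did (0.47, adjusted p 0.0448). Sirt2 had its highest value in the PFC in saline-exposed offspring (0.59, SE 0.26) and in the hypothalamus in morphine-exposed ones (0.47, SE 0.18), where 5 of 8 oligodendrocyte markers were higher. In the PFC contrast 0 of 8 oligodendrocyte markers passed and 1 had a positive value, with a median log2 fold change of -0.85. The part of these markers in the values of Sirt2 was not tested.

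**Figure D5:**
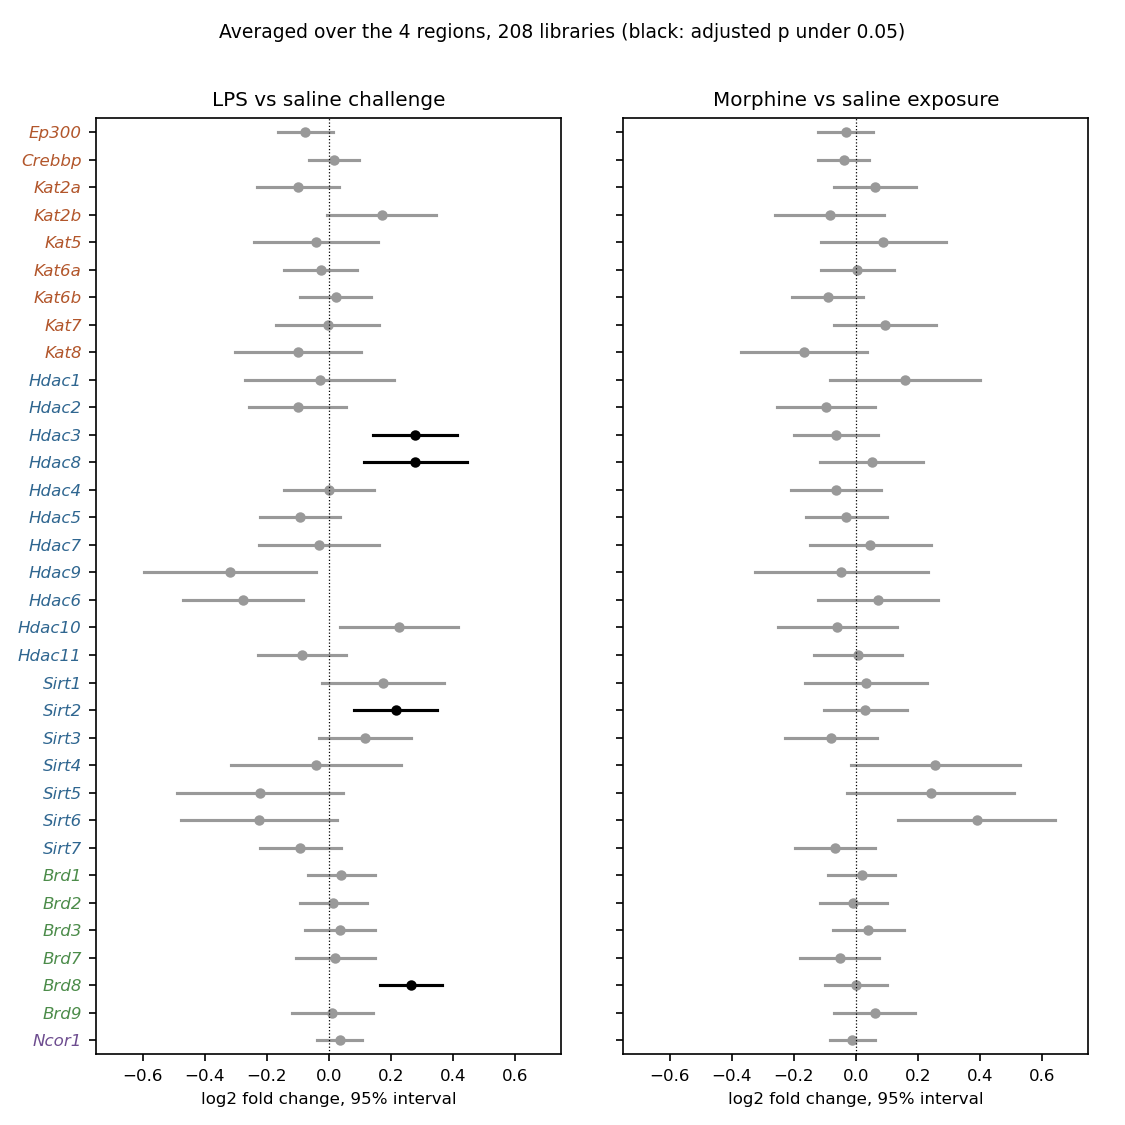
log2 fold change with its 95% interval for each member, averaged over the 4 regions, for the LPS challenge (left) and for morphine exposure (right). Black marks an adjusted p under 0.05: Brd8, Hdac3, Hdac8 and Sirt2 on the left, and no member on the right.

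Cofactors of these enzymes were read from a list of 69 genes (subunits of the acetyltransferase, corepressor and related complexes), of which 67 or 68 were tested in a region. In the 20 condition contrasts within regions, 1 cofactor passed, Sin3b, a scaffold of the Hdac1 and Hdac2 corepressor complex, which fell in the hippocampus in MOR-LPS against MOR-SAL (log2 fold change -0.64, SE 0.15, adjusted p 0.0459), where 0.467% of all genes passed. In the average of LPS against saline over regions and exposures, Chd3 and Mta2 were the only cofactors that passed, beside 5.5% of all genes. Chd3, a remodeller of the NuRD deacetylase complex, was lower after LPS (-0.28, SE 0.06, adjusted p 0.00122) and its partner Mta2 higher (0.26, SE 0.07, adjusted p 0.0132). Between regions, 29 cofactors were higher and 15 lower of 67 in the hippocampus against the PFC, beside 25.8% and 20.5% of all genes. In the striatum against the PFC 38 were higher and 14 lower, beside 36.2% and 16.6%. In the striatum against the hippocampus 22 were higher and 11 lower, beside 30.2% and 15.2%, and in the hypothalamus against the other regions 27 and 25, beside 37.5% and 32.2%. Chd3 was lower in both comparisons with the PFC, with log2 fold changes of -1.001 and -0.90.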

How the data were processed

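Raw counts of reads per gene, one table for each region, were deposited by the authors. Per the labels, reads were trimmed with Trim Galore 0.6.7, aligned to mm10 with STAR 2.7.10a and counted per gene, with HTSeq 0.12.4 and DESeq2 1.40.2 also named. The strand setting is not given in the sources used here. The deposited CPM tables were not used.

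Conditions, sex and replicate numbers were taken from the labels. After a filter on low counts (total above 10), TMM factors were computed and each region was fitted in edgeR 4.0.16 (glmQLFit, glmQLFTest) with 4 conditions and sex. A gene was called at a Benjamini-Hochberg adjusted p under 0.05 over all genes tested. Regions were compared in one fit of all libraries. Averages over regions used limma-voom (limma 3.58.1). R 4.3.3, DESeq2 1.42.0 and statmod 1.5.0 were used. Intervals are the value ± 1.96 SE. P-values measure the spread between libraries, which carry separate replicate numbers within a region. No pair of libraries of a group was identical or within sampling noise. Counts carry no molecular identifiers, and a count of 0 allows up to 3 counts of a library's total.

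On simulated counts the fits recovered most changed genes, but edgeR with the total-count filter called too many unchanged genes whose mean was at most 5 counts, and DESeq2 called somewhat too many above it. This was found after the design was set, the fit was kept as it was, and the check on simulated false calls was then limited to edgeR above 5 counts. Percentages of all genes called are therefore likely too high, and adjusted p-values near the threshold are affected through the adjustment. The members lie above this range.

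Number groups (the part of the replicate number before the hyphen) were left out in turn, used as a block in the LPS contrasts and given a correlation in limma-voom. The labels do not say that they mark litters, cages or batches. The correlation within them ran from -0.0489 to 0.0288, and that within animals over regions was 0.0148.

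The members and lists were chosen with earlier results of these data known. Named with values were members called in a contrast, the 2 with the smallest p where none was called, the 4 highest and 4 lowest between regions, up to 4 called cofactors, and Ncor1. Hdac3, Hdac8, Sirt2 and Sirt6 over regions, and levels named as highest or lowest, were named after their values were seen. Some genes are not reported here.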

Additional observations from a re-analysis of the deposited data

Results flagged for a closer look

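In the groups of 4 to 10 libraries (PFC SAL-SAL, PFC SAL-LPS and striatum MOR-SAL), 12 members named from the condition contrasts and the averages over regions were checked for a library far from the rest of its group (Dixon's test). Of 36 sets of libraries 11 were flagged, and chance alone flags about 1 in 20. In the striatum, 1 MOR-SAL library (15-0) was flagged for 3 members: Brd9 at 93.4 normalized CPM (next 39.6), Hdac9 at 266.4 (next 141.6) and Sirt7 at 19.6 (next 47.4). In PFC SAL-LPS, library 1-0 had Brd8 at 136.6 (next 78.8) and Kat7 at 162.3 (next 48.6), library 10-0 had Brd9 at 135.1 (next 64.6), library 9-3 had Hdac9 at 87.5 (next 49.0) and library 1-4 had Sirt2 at 128.4 (next 80.0). In PFC SAL-SAL, library 4-1 had Brd8 at 153.6 (next 84.9), and library 5-1 had Kat7 at 0.342 (next 32.9) and Sirt7 at 118.1 (next 75.2).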

How the results depend on the processing

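Depth, number groups and the number of genes tested limit these results. The number of members called in hypothalamic MOR-LPS against MOR-SAL, 1 in the fit reported, was 6 with DESeq2, 2 with its size factors, 2 without the sex term, 2 with only the groups compared, 3 without low-depth libraries, 0 in females alone, 0 in males alone and 0 with the replicate block of number group. It ran from 0 to 3 when each number group was left out. In the fits reported, 6.27% of all genes were called in this contrast and 2.55% in hippocampal SAL-LPS against SAL-SAL. In hippocampal SAL-LPS against SAL-SAL, 2 members became 0 with filterByExpr, 0 with only the groups compared, 0 in females alone, 0 in males alone and 0 with the number block, against 3 without the sex term (Hdac8 added) and 2 with DESeq2, its size factors, no count filter and without low-depth libraries, and 0 to 2 over the groups left out. Where 0 were called, 1 was called in females alone for hypothalamic MOR-SAL against SAL-SAL (Sirt4, 1.46), 1 for the hypothalamic interaction with DESeq2 and 1 with its size factors (0 to 1 over groups left out), 2 for sex in the hippocampus without low-depth libraries (0 to 1 over groups), and 3 for sex in the striatum with DESeq2 and 1 with its size factors (0 to 2 over groups). Here the counts under other settings stand without the share of all genes called in the same fit, and cannot be read against it. With SAL-SAL libraries alone, 5 members were called in the hippocampus against the PFC in place of 25, 7 in the striatum against the PFC in place of 24, and 5 in the striatum against the hippocampus in place of 15. In that order, 13.6%, 13.1% and 9.26% of all genes were called, in place of 46.3%, 52.7% and 45.4%. At 2-fold or more there were 2 members in place of 1 in each of the first pair of comparisons. With the replicate block of animals these were 4 and 2. The smaller SAL-SAL counts come from a fit of fewer libraries. Ncor1 in hypothalamic MOR-SAL against SAL-SAL reversed to 0.000388 without number group 10, and its range over groups left out was -0.30 to 0.000388. Hdac9 in the hippocampus kept its direction when each number group was left out (-0.73 to -0.57), with an adjusted p up to 0.134, Brd8 likewise (0.51 to 0.66, up to 0.0693), and Brd9 in the hypothalamus (0.55 to 0.73, up to 0.0748). Of the counts of members called, 254 under other settings stayed within 1.5 times of the reported count and 26 did not. Most counts within a region were 0, and a 0 that stayed 0 is among the 254. That number is therefore no measure of how stable the calls were. The causes of the other changes were not tested. The counts with libraries against their labelled sex removed were added after the data were seen and stayed within 1.5 times. With number group as a block, Brd8 in the hippocampus was at 0.69 (adjusted p 0.133), Hdac9 at -0.65 (adjusted p 0.314) and Brd9 in the hypothalamus at 0.50 (adjusted p 0.183). Most number groups hold libraries of both challenges, so the block compares LPS with saline within them. None of these 3 calls passed with it. Over all genes, libraries of a number group hardly deviated together (correlations of -0.0489 to 0.0288). These correlations do not settle whether number groups mattered for single members.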
